A study of Mus musculus with 4 samples.

Results

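Solitary H3K27ac peaks are peaks of the deposited Th17 list with no other peak of that list within 50 kb on either side, less than 100 kb from a protein-coding gene and on chromosomes 1 to 19 or X. The rule was met by 1765 of 56284 peaks (3.14%), which held 2.81% of the acetylated length. H3K27ac was profiled by ChIP-seq in helper T cells of C57BL/6 mice, grown from naive CD4+ cells and treated for 72 h with anti-CD3ε (0.25 µg/mL), anti-CD28 (1 µg/mL), TGF-β (0.1 ng/mL) and IL-6 (20 ng/mL). The growth protocol gives the TGF-β dose as a range. There were 2 immunoprecipitated libraries, made with an H3K27ac antibody, and 2 libraries of input DNA, 1 of each from both biological replicates, and the labels state no genotype, sex or age. Peak names carry the tags WT_Ddx5 and F1, which the labels do not explain. The list gives positions and no height, score or value per library. Values below therefore have no replicate error, the read depth is unknown, and no test was made: the members were chosen by the positions of these same peaks, and peaks are not replicates.

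Acetylation of lysine 27 on histone H3 is laid down by the acetyltransferases p300 and CBP at active promoters and enhancers. In T cells, genes of the lineage and of its cytokine program are known for wide clusters of such regions, in which a promoter is accompanied by many enhancers. Genes needed in nearly every cell often have a promoter within a CpG island, a stretch rich in CG dinucleotides, and can be transcribed with few distal elements. A peak that stands alone is the opposite of a cluster, and the question put to the list was where such peaks lie and at which genes.

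Of defining T cell and Th17 genes, Cd3d, Cd3e, Cd3g, Cd4, Cd28, Lck, Tcf7, Il17a, Il17f, Il23r and Ccr6 each had a peak at a gene end, and in no case was it a solitary one. The B cell genes Ms4a1 and Pax5 and the myeloid genes Csf1r, Adgre1, Itgam and Lyz2 had none, while Cd79a and Cd14 had one. A gene end here is a window of 1000 bp on each side of either annotated end of a RefSeq protein-coding gene (GRCm38).

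The promoter sequences below are shown because gene-end members of known strand touched a gene start in nearly all cases, and they range from rich to poor in CG dinucleotides. They belong to 6 of the widest solitary peaks and to the gene-end members of Dsel and Rnpc3, which are among the farthest from any other peak. Each runs from 200 bases before to 30 bases after an annotated start, 5′ to 3′ on the gene's strand, from RefSeq (GRCm38.p6), and capitals mark CG dinucleotides. The locations are chr9:94538052-94538281, minus strand (Dipk2a), chr1:64532604-64532833, plus strand (Creb1), chr10:63243597-63243826, plus strand (Herc4), chr9:14500419-14500648, plus strand (Cwc15), chrX:113185486-113185715, minus strand (Chm), chr1:21962621-21962850, minus strand (Kcnq5), chr1:111864889-111865118, minus strand (Dsel) and chr3:113630120-113630349, minus strand (Rnpc3).
Dipk2a: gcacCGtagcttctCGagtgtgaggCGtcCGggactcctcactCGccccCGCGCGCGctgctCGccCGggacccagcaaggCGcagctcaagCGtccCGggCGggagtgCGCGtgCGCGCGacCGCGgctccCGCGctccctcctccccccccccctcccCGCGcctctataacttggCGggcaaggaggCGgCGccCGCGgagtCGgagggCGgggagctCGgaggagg
Creb1: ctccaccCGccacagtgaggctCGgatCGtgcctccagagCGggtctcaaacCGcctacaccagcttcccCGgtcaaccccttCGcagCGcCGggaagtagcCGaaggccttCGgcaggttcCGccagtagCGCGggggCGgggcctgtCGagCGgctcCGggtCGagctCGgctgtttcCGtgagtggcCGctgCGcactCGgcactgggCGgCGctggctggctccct
Herc4: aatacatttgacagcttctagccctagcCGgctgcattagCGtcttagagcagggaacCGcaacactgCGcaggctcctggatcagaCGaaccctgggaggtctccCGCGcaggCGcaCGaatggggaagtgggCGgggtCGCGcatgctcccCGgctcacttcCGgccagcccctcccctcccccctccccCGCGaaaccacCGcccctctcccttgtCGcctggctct
Cwc15: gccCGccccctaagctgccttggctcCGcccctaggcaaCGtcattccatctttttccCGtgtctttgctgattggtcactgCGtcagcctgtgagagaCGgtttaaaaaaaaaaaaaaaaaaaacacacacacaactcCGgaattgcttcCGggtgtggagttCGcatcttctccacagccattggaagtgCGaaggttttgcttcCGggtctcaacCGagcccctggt
Chm: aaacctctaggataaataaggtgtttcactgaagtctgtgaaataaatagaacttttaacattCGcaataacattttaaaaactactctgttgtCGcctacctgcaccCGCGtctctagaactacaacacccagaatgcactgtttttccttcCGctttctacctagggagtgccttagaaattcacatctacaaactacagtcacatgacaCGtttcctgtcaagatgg
Kcnq5: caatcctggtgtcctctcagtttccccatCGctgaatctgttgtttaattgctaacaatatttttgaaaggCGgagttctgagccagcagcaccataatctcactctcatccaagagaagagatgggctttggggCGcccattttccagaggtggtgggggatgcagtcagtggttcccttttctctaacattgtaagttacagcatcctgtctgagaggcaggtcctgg
Dsel: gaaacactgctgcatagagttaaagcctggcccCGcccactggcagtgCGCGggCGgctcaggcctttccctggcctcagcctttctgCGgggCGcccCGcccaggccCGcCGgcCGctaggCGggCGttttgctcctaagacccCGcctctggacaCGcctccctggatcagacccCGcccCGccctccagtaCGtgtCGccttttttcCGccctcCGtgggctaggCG
Rnpc3: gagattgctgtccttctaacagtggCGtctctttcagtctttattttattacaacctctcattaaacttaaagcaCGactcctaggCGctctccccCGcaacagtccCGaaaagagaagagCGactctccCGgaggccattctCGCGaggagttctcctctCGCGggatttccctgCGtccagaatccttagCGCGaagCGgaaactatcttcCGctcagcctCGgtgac
The stretch of Dipk2a held 34 CG dinucleotides and that of Creb1 26. Dsel had 21, Herc4 18, Rnpc3 17, Cwc15 12 and Chm 6 of them. Kcnq5, whose start shown here had 3 of them, was the poorest of these stretches.

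Solitary peaks lay at gene ends more often than other peaks. Of the 1765 members, 892 (50.5%, exact 95% interval 48.2 to 52.9%) touched a gene end, against 11949 of 54519 other peaks (21.9%, 21.6 to 22.3%), a ratio of 2.31. Over all peaks the share was 22.8%. The limit on the distance to a gene applied to solitary peaks alone, and without it their share was 45.2%. Every other class was smaller among solitary peaks. Gene bodies held 519 members (29.4%), against 46.8% of the other peaks. The space between genes held 259 members (14.7%), against 23.2%, and other annotated genes, mostly noncoding, held 95 (5.38%), against 8.07%. These Clopper-Pearson intervals cover the number of peaks and no sequencing error. The rule bars a peak away from gene ends from the members if a gene-end peak lies within 50 kb. It can thus set part of the difference in class shares. With peaks at most 1000 bp apart merged, the gene-end shares were 47.2% in solitary and 29.6% in other peaks.

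The members at gene ends sat at gene starts. Where the promoter table gave the strand of the gene, 699 of 715 members (97.8%) touched a start and 16 touched a finish alone. Among other gene-end peaks, 8576 of 9714 (88.3%) touched a start and 1138 a finish alone. The rule bars a peak at a gene's finish from the members if a peak at the start lies within 50 kb. It can thus set part of the difference between 97.8% and 88.3%, and nothing is read from that difference. Strand was unknown for 177 of the 892 members and for 2235 of the 11949 other gene-end peaks. Members touching the ends of at least 2 genes were 97 (10.9%), against 2226 (18.6%) of the other gene-end peaks.

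The gene-end share depended on how many genes lay nearby, and it was higher in solitary peaks at like gene numbers. With 1 protein-coding gene within 50 kb, 345 of 878 members (39.3%) were at a gene end, against 1564 of 17478 other peaks (8.95%). With 2 genes the shares were 66.9% and 19.9%, and with 3 to 4 genes 80.8% and 34.2%, solitary peaks first in both pairs. With 5 or more genes they were 66.7% of 36 members and 52.8% of 6950 other peaks, and the exact 95% interval of the members (49.0 to 81.4%) included the value of the other peaks. Solitary peaks had a mean of 1.62 protein-coding genes within 50 kb, against 2.38 for other peaks. Like gene numbers leave the bar on members near another peak in place, so the rule can set part of these differences too.

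Widths differed in a way that the class of a peak reversed. Over all classes, solitary peaks had a median width of 788 bp with quartiles at 357 and 1483 bp, and all other peaks had one of 572 bp with quartiles at 253 and 1479 bp. At gene ends, where peaks are wider in both groups, the median was 1274.5 bp in solitary peaks and 1502 bp in other peaks, a difference of -227.5 bp. Away from gene ends the medians were close. They were 472 and 438 bp in gene bodies, 532 and 541 bp at other annotated genes and 444 and 458 bp between genes, solitary peaks first in each pair. With the other peaks weighted to the class mix of the solitary ones, their median was 884 bp, above the 788 bp of the solitary peaks. The wider median of solitary peaks was also turned round to 1001 bp against 1320 bp when peaks at most 1000 bp apart were merged, and to 1278 bp against 1379 bp with peaks of at least 500 bp.

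Very wide peaks were rare among the members. A width of at least 5000 bp was reached by 5 solitary peaks (0.283%), against 1501 other peaks (2.75%), and of at least 2000 bp by 12% of solitary and 16.5% of other peaks. Among gene-end peaks, 18.5% of the solitary and 33.9% of the other ones were at least 2000 bp wide. Narrow peaks, under 500 bp, made up 35.1% of the solitary and 45.9% of the other peaks.

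**Figure D1:**
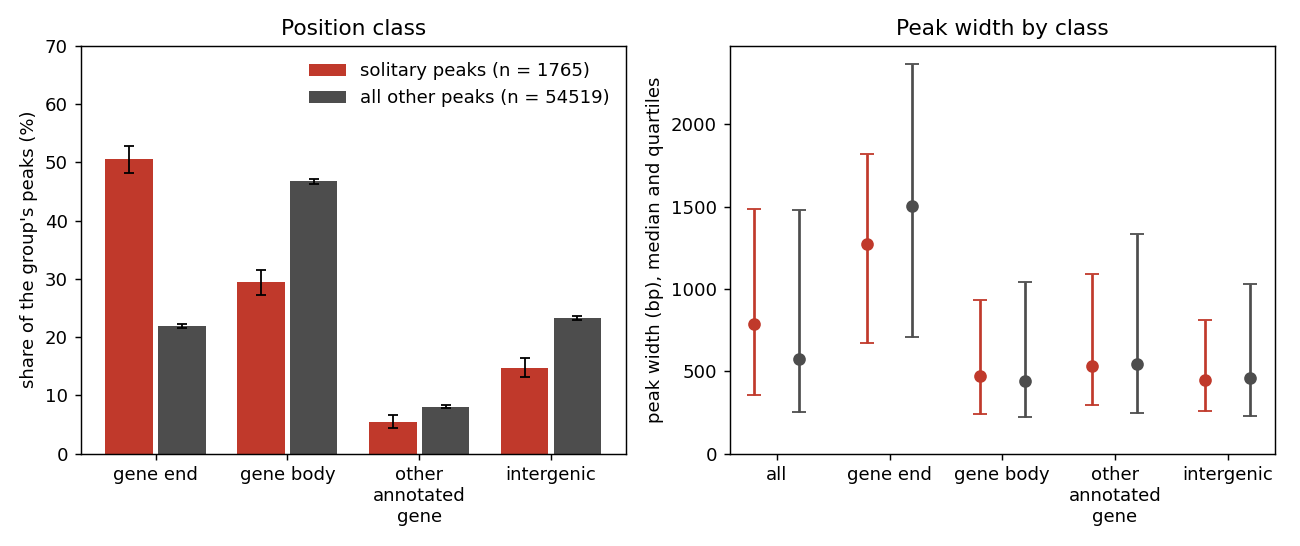
Left, share of solitary peaks (red) and all other peaks (grey) in each position class, with exact 95% intervals over peaks. Right, median peak width in bp (points) with quartiles (bars). Solitary peaks were at gene ends in 50.5% of cases against 21.9%, and those at gene ends had a median of 1274.5 bp against 1502 bp.

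The 50 kb limit cut through a gradual relation. Among peaks less than 100 kb from a protein-coding gene, the gene-end share was 17.6% in those with another peak at most 1 kb away, 23.3% at 1 to 5 kb, 32.7% at 5 to 10 kb, 40.1% at 10 to 25 kb and 47.0% at 25 to 50 kb. Inside the solitary range it was 48.2% at 50 to 75 kb, 49.9% at 75 to 100 kb, 49.3% at 100 to 200 kb, 58.3% at 200 to 500 kb and 70.5% (43 of 61 peaks, exact 95% interval 57.4 to 81.5%) beyond 500 kb. The median width of gene-end peaks was largest, 1783 bp, at 1 to 5 kb and was 1383 bp at 50 to 75 kb and 1120.5 bp at 200 to 500 kb. The distance of a member to its nearest other peak had a median of 79329 bp (quartiles 60954 and 125737 bp).

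**Figure D2:**
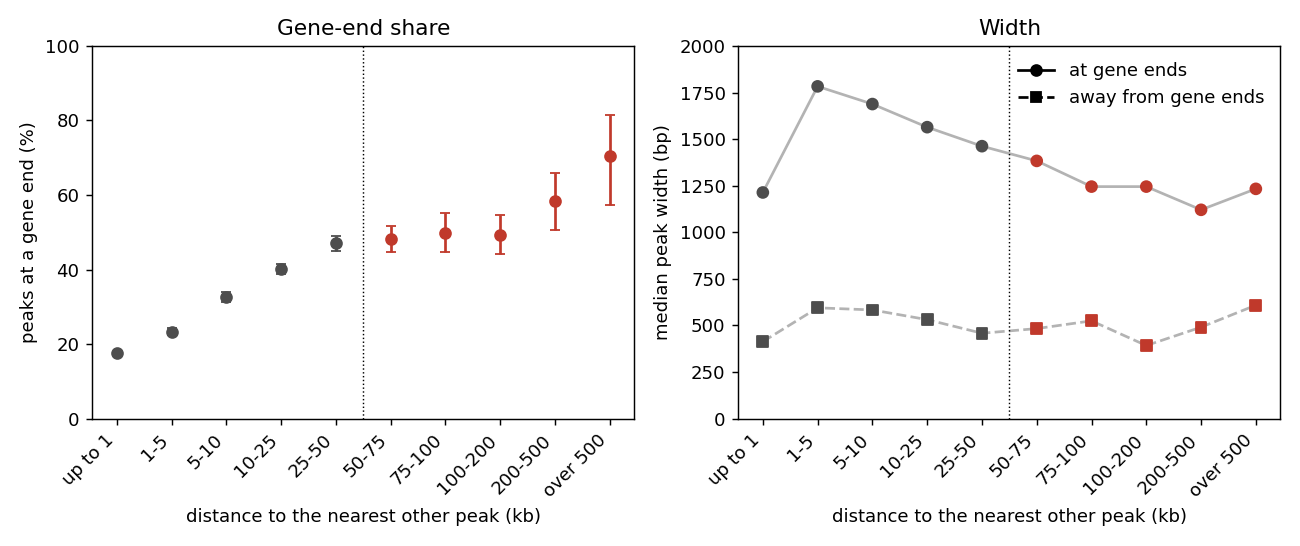
Gene-end share (left, %, with exact 95% intervals) and median width in bp (right; circles at gene ends, squares away from them) by distance to the nearest other peak in kb. Grey points are other peaks, red points solitary peaks, and the dotted line is the 50 kb limit. The share was 47.0% just below the limit and 48.2% just above it.

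Members next to the limit show how fine it is. Just inside it lay the peak at the start of Mcm10, a replication factor gene, with 50014 bp to its neighbour, and that at the start of Kif14, a mitotic kinesin gene, with 50024 bp. A peak near Tex101 had 50065 bp. A pair in Tab3, which encodes a binding partner of the kinase TAK1, lay 50082 bp apart, 1 at the start and 1 in the gene body, and both counted as members. Just outside it, a peak at the start of Il3ra, which encodes a chain of the IL-3 receptor, and an intergenic peak near Olfr31 lay 49999 bp apart. Peaks in Snx29 (49981 bp), near Alb (49967 bp) and at Wdr35 (49943 bp) followed.

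The running number in the peak names bears on what counts as alone. Numbers rose with position on each of the 20 chromosomes, and 15150 of the 71435 numbers from 15 to 71449 (21.2%) had no peak in the list. Of the solitary peaks, 860 (48.7%) had no absent number between them and the peaks on either side, against 63.1% of the other peaks. The gaps beside a member are long by the rule and leave room for more absent numbers, so nothing is read from this difference. Up to 6 numbers were absent beside a member. The gene-end share was 52.6% in those 860 members and 48.6% in the 905 with at least 1 absent number, and their median widths were 840 and 733 bp. Neither labels nor names say what the absent numbers stood for.

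The widest solitary peak, 13676 bp on chromosome X (113172316 to 113185991), covered the start of Chm, which encodes Rab escort protein 1, with 83752 bp free of peaks on one side and 111547 bp on the other. Chm held 9 peaks in all. The next widest at a gene end was 5963 bp on chromosome 9 (94533207 to 94539169) at the start of Dipk2a, a gene of a Golgi kinase-like protein, the sole peak within 50 kb of that gene. A peak of 5065 bp lay at an end of Adamts6, a secreted metalloprotease gene. A shared peak of 4805 bp covered the starts of Kdm4d, a histone demethylase gene, and Cwc15, a spliceosome gene. Herc4, a ubiquitin ligase gene, had 4685 bp.

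The other wide members at gene ends lay at genes of varied function. A peak of 4633 bp covered the start of Kcnq5, a potassium channel gene of 564252 bp. Ppm1b, a protein phosphatase gene, had 4580 bp, and Creb1, the gene of the cAMP-responsive transcription factor, 4488 bp. A peak of 4381 bp covered the start of Inpp4b, a phosphoinositide phosphatase gene, and that of the predicted gene Gm51582. Inpp4b held 93 peaks in all, so a member at a gene end can belong to a gene that is densely marked elsewhere. The peak of 4187 bp at Prss12 touched the finish of this protease gene and the noncoding gene Snhg8.

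Solitary peaks in gene bodies were in long genes. Their longest host genes had a median length of 199669 bp, against 83323 bp for other gene-body peaks, and 49.9% against 19.6% of these hosts were at least 200000 bp long. In 223 of 519 cases (43.0%) a host gene had a peak of the list at an end, against 83.5% for other gene-body peaks. The rule allows no gene-end peak within 50 kb of a member, so it sets much of this gap. It also bars members from short host genes with a peak at an end. Nothing is therefore read from this gap or from the host lengths. An annotated start inside the host lay under 54 of the 519 members (10.4%), against 3.66% of other gene-body peaks. Insig2, whose product holds back sterol synthesis, was one of these: its peak of 3401 bp (chromosome 1, 121326647 to 121330047) covered an inner start, and the gene had no peak at its outer ends.

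The widest member in a gene body was 7074 bp in Lrba (chromosome 3, 86754436 to 86761509), a vesicle trafficking gene known for its part in keeping CTLA-4 in T cells. Klf12, a transcriptional repressor gene, followed with 3776 bp, then Adarb2, an RNA-editing family gene, with 3580 bp and Cpeb2, a translational regulator gene, with 3408 bp. Lrba held 24 peaks, Adarb2 8, Klf12 7 and Cpeb2 1. Adarb2 and Cpeb2 had no peak at a gene end.

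The 5 longest genes with a solitary peak included genes known from muscle and synapses. Dmd, the dystrophin gene of 2390387 bp, held 1 peak of 287 bp in its body, and the nearest other peak was 524598 bp away. Nrxn3, a synaptic adhesion gene, likewise held 1 peak, of 230 bp. Dlg2, a synaptic scaffold gene, had a solitary peak of 113 bp among 28 peaks in the gene. Macrod2 (692 bp) and Fhit (1554 bp) had their solitary peaks at the gene start, as the sole peak in Macrod2 and 1 of 12 in Fhit.

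Between genes, members lay a median of 27620 bp from the nearest protein-coding gene, against 21077 bp for other intergenic peaks. Within 10000 bp of a gene lay 22.4% of the intergenic members and 31.4% of the other intergenic peaks. The rule removed members at 100 kb or more from a gene. It also bars members within 50 kb of a gene-end peak, so nothing is read from these distances. The widest intergenic member was 5862 bp on chromosome 17 (79296035 to 79301896), 31826 bp from Cdc42ep3, a gene of a CDC42 effector. The next were 3541 bp near Gvin1, 2728 bp near Slc4a8, 2427 bp near Phka2 and 2324 bp near Nab1. Of the 95 members over other annotated genes, 77 (81.1%) touched a lncRNA gene, against 89.9% of the other peaks of that class, and 10 (10.5%) a pseudogene, against 4.21%.

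The members farthest from any other peak were again at gene starts in 4 of 5 cases. A peak of 844 bp at Cldn34c1 on chromosome X (123103093 to 123103936) had no other peak for 6645153 bp. Dsel, a gene of a dermatan sulfate epimerase-like protein, had a peak of 1065 bp with 4995890 bp to the nearest other. Rnpc3, which encodes a protein of the minor spliceosome, had 2158 bp with 2010850 bp free, and the zinc finger gene Zik1 had 650 bp with 1926558 bp free. The fifth, 769 bp in the body of Auts2, had 1880063 bp. Beside the 1765 members, 209 peaks also stood alone within 50 kb but were 100 kb or more from a protein-coding gene. Those had a median width of 406 bp.

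Chromosome X held the highest share of solitary peaks. There 103 of 1251 peaks (8.23%) were solitary, against 1662 of 55033 (3.02%) on the autosomes, where the share ran from 1.63% on chromosome 11 to 3.93% on chromosome 1. Chromosome X also had the fewest peaks for its genes, 1.30 per protein-coding gene against 2.66 on the autosomes. Of its members 68.9% were at gene ends, against 49.4% on the autosomes. Its other peaks were also more often at gene ends, 27.4% against 21.8% on the autosomes.

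At gene starts, solitary peaks reached less far than other peaks on both sides, and more of them had their midpoint inside the gene. Of 608 members touching the start of a single gene with known strand, 455 (74.8%) covered the annotated start itself, against 72.3% of 6566 other such peaks. The midpoint lay a median of 273 bp into the gene in solitary peaks and 289 bp in other peaks, and on the transcribed side in 87.7% and 77.6%. Relative to the start, with positions inside the gene counted as positive, the median outer edges were -315.5 and 888.5 bp in solitary peaks, against -498 and 1042 bp in other peaks. At 1000 bp into the gene, 40.3% of solitary and 53.1% of other peaks still covered the position, and at 2000 bp 6.41% and 16.4%. A start with several peaks close together cannot hold a member, while 5628 of the other gene-end peaks had another peak at most 1 kb away. The rule can thus set part of these differences, and nothing is read from them.

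**Figure D3:**
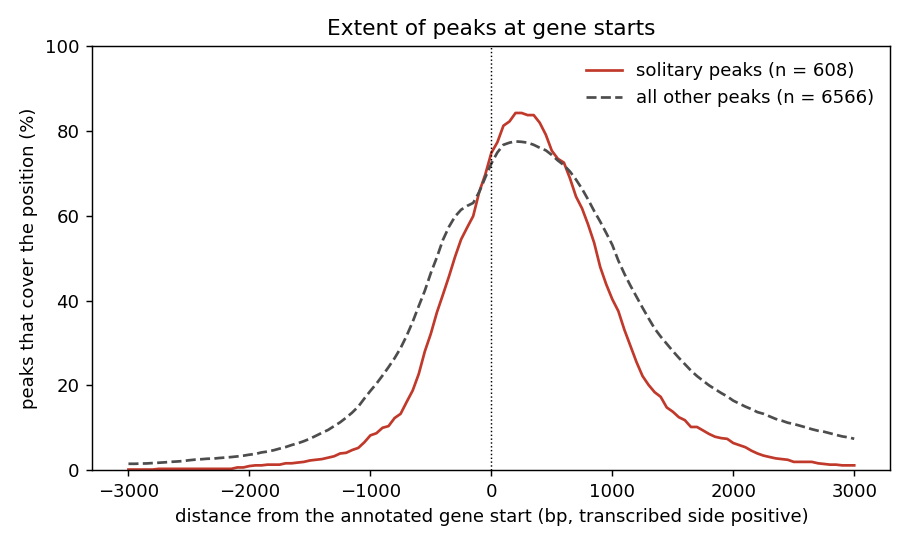
Percent of peaks that cover each position from 3000 bp before to 3000 bp after the annotated gene start, for 608 solitary peaks (red line) and 6566 other peaks (grey dashes). Both curves peak inside the gene, at 84.2% and 77.5% of peaks 200 bp after the start, and that of the solitary peaks falls off sooner on both sides. The rule bars starts with several peaks close together from the solitary group alone.

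Promoter windows under solitary peaks held more CG dinucleotides than those under no peak, and so did windows under other peaks. Of the 986 genes with a solitary gene-end peak, 784 (79.5%) had an entry in the promoter table, and 814 of its 300-base windows lay under a solitary peak. The 814 windows came from 732 genes, and the table held 79.9% of all protein-coding genes. With part of the 986 genes missing, a check over the whole set is void, and the values describe these windows alone. Their median GC content was 62.3%, against 62.0% in 9986 windows under other peaks. CG dinucleotides had medians of 23 under solitary peaks, 22 under other peaks and 4 in 10212 windows under no peak. A window counted as CpG-rich with at least 55% GC and at least 0.65 of the CG count that its C and G content predicts, which 66.5% under solitary peaks, 62.9% under other peaks and 12.2% under no peak were. Windows with under 0.4 of that count were 5.77% under solitary peaks, 10.4% under other peaks and 69.4% under no peak.

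**Figure D4:**
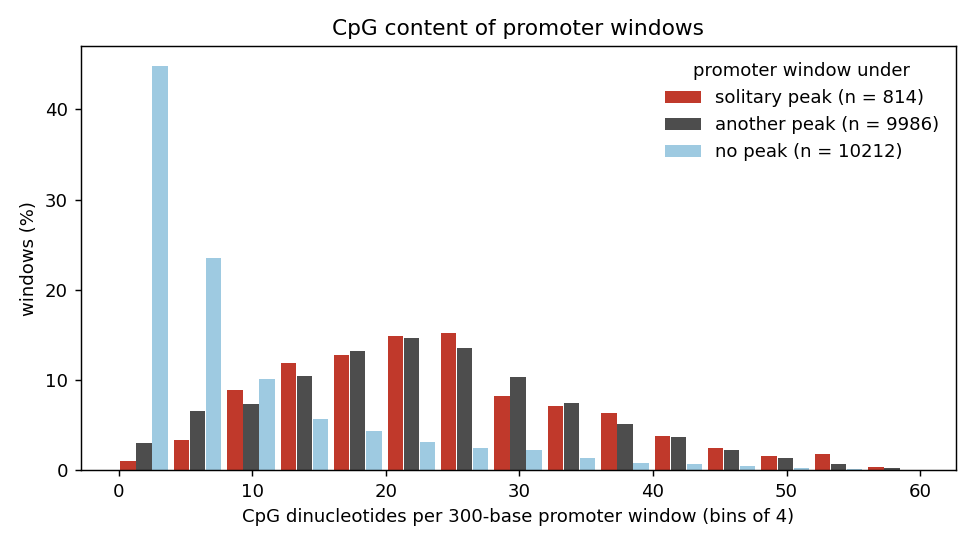
CG dinucleotides per 300-base promoter window (x axis, bins of 4) as a percent of the windows (y axis) under a solitary peak (red), under another peak (grey) and under no peak (blue). The medians were 23, 22 and 4.

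Short motifs were searched in these windows on both strands, and none of them contains another. The GC box bound by Sp and KLF factors, spelled GGGCGG, was in 72.4% of windows under solitary peaks, 67.5% under other peaks and 46.7% of all windows. The ETS motif, spelled CCGGAAG, was in 19.5% under solitary peaks, 20.2% under other peaks and 11.7% of all. The CCAAT box, spelled by its name, was in 35.5%, 37.7% and 38.5% in the same order. The TATA box, spelled TATAAA, was in 5.28%, 5.98% and 12.7%.

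Motifs of AP-1 and RUNX factors, which act in stimulated T cells, were in fewer windows under solitary peaks and under other peaks than in all windows. The AP-1 motif, spelled TGANTCA, was in 3.32% under solitary peaks, 4.56% under other peaks and 7.04% of all windows. The RUNX core, spelled TGTGGT, was in 10.8% under solitary peaks, 12.1% under other peaks and 14.7% of all. Windows under no peak, 10212 of all 21012, held the AP-1 motif in 9.77% and the RUNX core in 17.6%. The reverse order held for 2 motifs of CpG-rich promoters. The cAMP response element, spelled TGACGTCA, was in 3.69% under solitary peaks, 3.35% under other peaks and 2.26% of all, and the NRF1 core, spelled CGCATGCG, in 5.04%, 4.35% and 2.53% in that order. A match is a description of letters in a window and no evidence of binding.

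A solitary peak at an end marked 986 of 21631 protein-coding genes (4.56%), while 53.8% had any peak at an end, so that 8.47% of the genes with a gene-end peak had a solitary one. These genes were long, with a median of 44506 bp, against 20458 bp for genes with other gene-end peaks and 11605.5 bp for genes with none. A short gene with a separate peak at each end, or with a second peak inside it, cannot have a solitary one. The rule can thus set part of the difference in length, and nothing is read from it. For 1198 genes (5.54%) the gene and 50000 bp on each side held exactly 1 peak, a solitary one, and in 544 of them (45.4%) it lay at an end of that gene. In 4860 genes (22.5%) the same window held no peak.

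The rule makes a solitary peak rarer where peaks are dense, and the lists below are given with the number of peaks around their genes. Genes of the T cell and Th17 programs were almost without solitary gene-end peaks although nearly all had a peak at an end. Of genes with a gene-end peak, a solitary one was found at 0 of 27 genes of the Th17 program, 0 of 24 activation genes, 0 of 29 cytokine signalling genes and 1 of 25 T cell identity genes. The median number of peaks within 50 kb was 23 for the Th17 program, 21 for both the T cell identity and the cytokine signalling genes and 15 for the activation genes, against 5 over all protein-coding genes. In 3 other settings, 25 kb on either side, peaks of at least 500 bp and merged peaks, 1 gene of the Th17 program had a solitary gene-end peak. The exception among T cell identity genes was Themis, a regulator of T cell receptor signalling, whose solitary peak of 576 bp (chromosome 10, 28882958 to 28883533) lay at the finish of a gene with 16 peaks. Of 30 cell cycle genes with a gene-end peak, 1 had a solitary one, the mitotic cyclin gene Ccnb2 (1262 bp).

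Genes of DNA repair, autophagy and the centrosome and cilium had about 2 times the overall share of 8.47%. Solitary peaks were at 7 of 40 DNA repair genes with a gene-end peak (17.5%). Among them were Msh3, a mismatch repair gene, with 3056 bp, Xrcc4, an end-joining gene, with 2884 bp and Xpa, an excision repair gene, with 2871 bp. The others were Atr, Brca2, Xrcc2 and Wrn. In autophagy they were at 5 of 27 genes (18.5%), with Atg2b (2760 bp), a lipid transfer protein gene, Rb1cc1 (2678 bp), a gene of the initiating kinase complex, and Atg16l1 (2359 bp), a gene of the LC3 lipidation machinery. In the centrosome and cilium list they were at 9 of 53 genes (17.0%), with Cep57 (3301 bp), Cep83 (2478 bp) and Cep89 (1908 bp) the widest. The median number of peaks within 50 kb was 6.5 for DNA repair and 6 for both autophagy and the centrosome and cilium list. It was 5 over all protein-coding genes, but 46.2% of those had no gene-end peak. No such median was taken over genes with a gene-end peak, so the lists are not compared with like genes in peak density. With 100 kb on either side there were 2 of 40, 1 of 27 and 4 of 53 in the order of the 3 lists as described, against 3.08% of all genes with a gene-end peak.

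Other housekeeping lists lay on either side of the overall share. Solitary peaks were at 8 of 77 genes of the respiratory chain (10.4%), with Uqcr10 of complex III at 2731 bp and Ndufa5 and Ndufs4 of complex I at 1849 and 1625 bp. Rab GTPases had 6 of 49 (12.2%), with Rab18 (1960 bp), Rab40b (1949 bp) and Rab30 (1825 bp). Mitochondrial ribosomal proteins had 5 of 76 (6.58%), led by Mrpl23 (2138 bp), Mrpl13 (1966 bp) and Mrpl50 (1639 bp). Proteasome subunits had 3 of 44 (6.82%), Psmd1, Psmd14 and Psmd9. Splicing factors had 3 of 50 (6.00%), Srsf6 (2535 bp), Snrpb (2490 bp) and Snrpb2 (1311 bp).

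Among further lists, tRNA synthetases had 2 of 33, the mitochondrial enzymes Yars2 (1807 bp) and Wars2 (1571 bp), and DEAD and DEAH box helicases 3 of 47, Ddx31 (2250 bp), Dhx29 (2182 bp) and Ddx60 (1077 bp). Cytosolic ribosomal proteins had 1 of 81 (1.23%), Rpl37a, with a wide peak of 3673 bp that spanned the gene. This count was 7 of 81 (8.64%) with peaks of at least 500 bp, against 14.4% of all genes with a gene-end peak, and 3 of 81 (3.70%) with merged peaks, against 10.5% of all such genes. Ubiquitin enzymes and proteases had 2 of 69 (2.90%), Ube2e2 (1469 bp) and Usp51 (390 bp). With 25 kb on either side they had 15 of 69 (21.7%), against 19.5% of all such genes, so their place below the overall share did not hold there. The peroxisome list had 1 of 19, the catalase gene Cat (1418 bp). Zinc finger Zfp genes had 33 of 301 (11.0%), and their solitary peaks were narrow, with a median of 886 bp against 1332.5 bp over all 986 genes. The widest of them were at Zfp407 (2535 bp), Zfp236 (2501 bp) and Zfp64 (2441 bp). Solute carriers had 13 of 196 (6.63%), led by Slc19a1 (3774 bp), the folate carrier gene, Slc10a7 (3086 bp) and Slc25a24 (1815 bp).

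Lists of other tissues had few gene-end peaks of any kind and so few solitary ones. Solitary gene-end peaks were at 0 of 26 neuron, 0 of 24 muscle, 0 of 22 liver, 0 of 22 myeloid, 0 of 18 B cell and 0 of 40 early development genes, of which 7, 2, 0, 3, 3 and 4 had any gene-end peak. Olfactory receptors had 0 of 1106 and vomeronasal receptors 0 of 353, of which 12 and 2 had any gene-end peak. Of potassium and sodium channel genes with a gene-end peak, 1 of 23 (4.35%) had a solitary one, Kcnq5. Of such cadherin and protocadherin genes 2 of 8 (25%) did, Pcdh1 (1493 bp) and Pcdhgb6 (257 bp), the highest share of any list and on the fewest genes of the lists with a solitary peak. Symbols sharing a family name can lie in clusters and share a peak, and Pcdhgb6 overlaps other genes of its cluster.

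**Figure D5:**
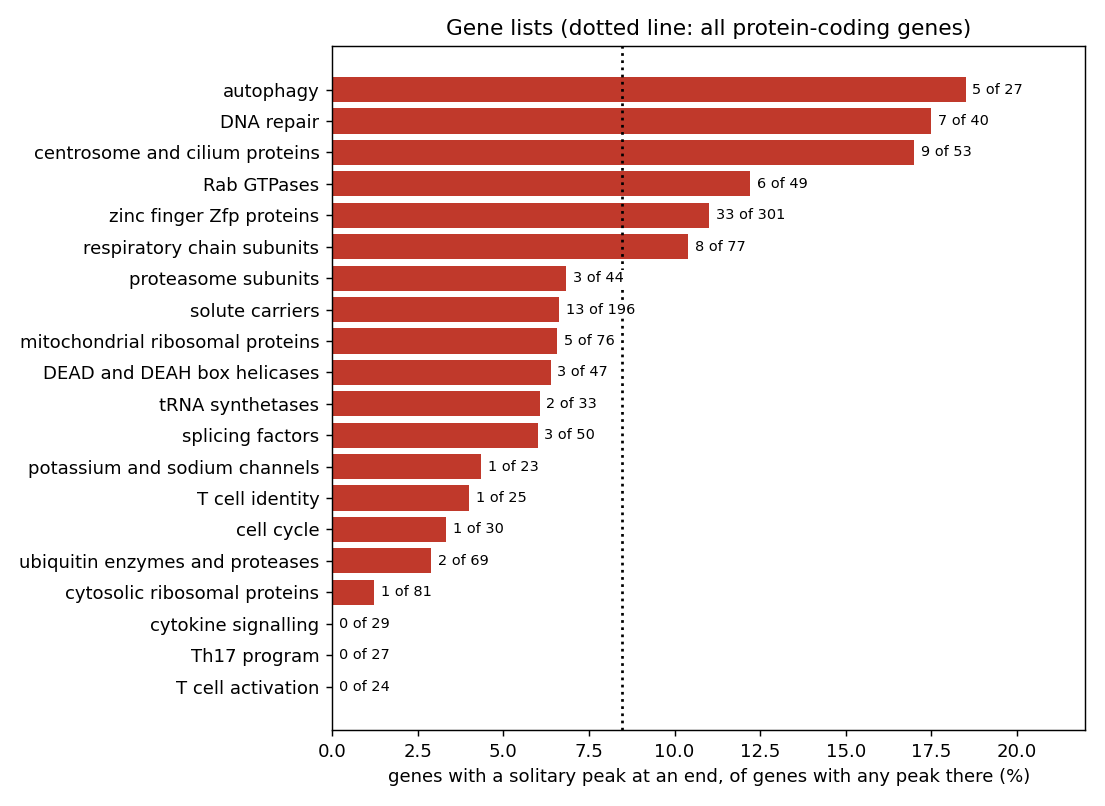
Genes with a solitary peak at an end as a percent of the genes with any gene-end peak (x axis), for lists with at least 20 such genes (y axis); the counts stand beside the bars and the dotted line marks the 8.47% of all protein-coding genes. Autophagy (18.5%), DNA repair (17.5%) and the centrosome and cilium list (17.0%) stand highest, and 3 T cell lists are at 0.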

How the data were processed

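The deposited list holds 1 line per peak, with its position and a numbered name. It gives no score, signal or fold. Per the submitters' processing notes, the build was GRCm38 (mm10), and the tools named are MACS2 2.2.6, Bowtie2 2.3.4.1, deepTools and SAMtools 1.9. Per the series' design text, the input of each replicate served the peak calls. Not given in the sources used here are the threshold for a peak, any filter and a pooling of replicates, all of which set which peaks count as alone.

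Starts were taken as counted from 0 and are given counted from 1. Distances are the bases between 2 peaks, or between a peak and a gene. Genes were 21631 RefSeq protein-coding genes (GRCm38.p6). Strand and sequence came from a RefSeq promoter table of 250 bases before to 50 after each start, which held 17274 of them (79.9%). A peak belonged to the first fitting class of gene end, gene body, other annotated gene and intergenic, where an overlap of 1 bp sufficed. The read depth is unknown. The code was checked on planted peaks with known answers.

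Some marker genes are not reported here. Members and gene lists were chosen with earlier results of these data known. Genes are named by width, distance or length within their class, and up to 3 by width per list. Of each gene list, all symbols matched. The remaining members of the DNA repair list, the inner start of Insig2, the farthest members whose sequences are shown and Snhg8 were named after their values were seen. Values were computed in Python 3.11.15 with pandas 2.3.3 and numpy 2.4.6, intervals with scipy 1.17.1 and plots with matplotlib 3.10.9.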

Additional observations from a re-analysis of the deposited data

How the results depend on the processing

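Solitary peaks had the higher gene-end share under all 11 alternatives that gave one, while their wider median did not hold in all. The median was higher in solitary peaks in 6 settings, the reported one included, and lower in 4. The median width minus that of other peaks was 216 bp as reported, and it was -101 bp with peaks of at least 500 bp, -319 bp with peaks at most 1000 bp apart merged, -227.5 bp at gene ends and, in an alternative added once the data had been seen, -243 bp with peaks of at least 1000 bp. In what follows the value of solitary peaks stands before that of other peaks. With 25 kb on either side there were 4131 solitary peaks, of 873 against 559 bp, and 20.8% of the other peaks were at gene ends. With 100 kb there were 604, of 758 against 576 bp, with shares of 54.0% against 22.5%. Peaks of at least 500 bp gave 1278 against 1379 bp and 57.9% against 32.0%, and merged peaks 1001 against 1320 bp and 47.2% against 29.6%. With no limit on the distance to a gene, solitary peaks had a median of 730.5 bp and a share of 45.2%. Gene-end windows of 500 bp gave 47.3% against 19.5% and of 2500 bp 53.6% against 28.7%. By midpoint the shares were 47.2% against 18.6%, and with gene starts of known strand alone 39.6% against 15.7%. Medians were 1274.5 against 1502 bp at gene ends and 472 against 452 bp away from them. Chosen after the data were seen, peaks with no absent running number beside them gave 860 solitary peaks, 840 against 571 bp and 52.6% against 22.9%. Also chosen then, peaks of at least 1000 bp gave 2655 solitary peaks, 1696 against 1939 bp and 65.5% against 39.2%. Fewer or merged peaks change which peaks are solitary by construction, and other causes were not tested. No paired analysis was possible because the list has no values per replicate, and leaving out a replicate could not be done for the same reason. With no depth, no limit of detection can be given.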

Other observations

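Precursor hairpins of 4 microRNAs lay under solitary peaks, each at a gene end. They were Mir8114 at Glul, the glutamine synthetase gene (peak of 2259 bp), Mir423 at Nsrp1 (1622 bp), Mir3081 at Boc (1079 bp) and Mir8109 at Neto2 (902 bp). No count of hairpins under other peaks is given, so nothing is read from the number 4 or from their place at gene ends.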
